A study of Mus musculus with 2 samples.

Results

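The 10 genes described here encode oxidising and hydrolysing enzymes of the lung: the flavin monooxygenases Fmo1, Fmo2 and Fmo5, the cytochromes P450 Cyp1a1, Cyp1b1, Cyp4b1 and Cyp2f2, their electron donor Por, the aldehyde dehydrogenase Aldh1a1 and the epoxide hydrolase Ephx1. They were picked by symbol from 27998 genes in the files, and all 10 were found and had UMIs (unique molecular identifiers, 1 per captured transcript). The genes were chosen with their levels in these cell types and libraries already known. Their levels and their differences between libraries are therefore described and not tested.

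The data were 2 single-cell RNA libraries from lungs of C57BL/6J mice aged 10 to 12 weeks, 1 labelled WT and 1 labelled KO, in a mouse model of hereditary hemorrhagic telangiectasia type 2. The sort kept cells that carried VE-cadherin, which joins endothelial cells to each other, and lacked CD45, which marks leukocytes. The labels name neither the gene deleted in the KO mice, nor a driver or inducer, nor the number of animals pooled, and no treatment is listed for either group. The human disease follows from loss of ACVRL1, a receptor for bone morphogenetic proteins. In general capillary cells Acvrl1 had 1319 CPM in WT and 1224 CPM in KO, where CPM is a gene's UMIs per 1000000 UMIs of the cell class. Whether the 3′ tag of Acvrl1 lies in a deleted stretch is not known, so these values do not test the label.

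The filters left 2729 WT cells (median 5435 UMIs) and 1315 KO cells (median 8646 UMIs). Mitochondrial UMIs were over the limit of 10% in 15.1% of the WT barcodes and 30.5% of the KO barcodes, and the part of this difference in cell quality in the results was not tested. The libraries shared 12 barcodes, 6 of them among the cells kept. Clusters were named from marker genes, and the names carry "-like" because no deposited annotation was used. Of the cells kept, 92.6% in WT and 92.4% in KO fell into the 10 classes described, and each class is given with its number of WT and KO cells. Endothelial classes were general capillary (gCap-like, 843 and 237), aerocyte capillary (aCap-like, 389 and 66), arterial-like (41 and 12) and venous-like (51 and 13). A cluster led by Esm1 (E4, 154 and 21) and one led by Igfbp3, Apln and Peg3 (E5, 11 and 124) stayed unnamed. The other classes were alveolar type 2 (AT2-like, 831 and 606), adventitial fibroblast-like (69 and 50), alveolar fibroblast-like (56 and 32) and smooth muscle-like (82 and 54). The cell type label reads lung endothelial, and the VE-cadherin gene Cdh5 was at 1893 CPM in WT gCap-like cells. In WT AT2-like cells, which make surfactant, it had 10.1 CPM.

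With 1 library per group there was no replicate to check a difference against, and genotype cannot be told apart from library preparation. Cells with UMIs of Xist and none of 4 Y-linked genes numbered 2399 in WT and 200 in KO. Cells with Y-linked UMIs alone numbered 9 in WT and 763 in KO, so sex and genotype are also mixed. Values split by sex marker are given for some of the differences only. They are not given for aCap-like cells, for Fmo5 and Ephx1 in adventitial fibroblast-like cells, or for Cyp4b1 in smooth muscle-like cells. Intervals are 95% (exact Poisson for levels, exact conditional binomial for ratios, exact Clopper-Pearson for shares) and cover counting error only. Sftpc, the AT2 surfactant gene, was found in every other class described at 0.38 to 1.76% of its AT2-like level, which serves here as a measure of RNA carried between cells.

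Flavin monooxygenases and cytochromes P450 are membrane enzymes of the endoplasmic reticulum that add an oxygen atom to foreign and endogenous compounds. Flavin monooxygenases attack soft nitrogen and sulfur atoms and take electrons directly from NADPH, whereas P450s attack a wide range of carbon centres and receive electrons from NADPH through Por. Epoxide hydrolases and aldehyde dehydrogenases then detoxify reactive epoxides and aldehydes. The lung is known for a monooxygenase set of its own, in which Fmo2, Cyp4b1 and Cyp2f2 are the characteristic members. Cyp2f2 belongs to club cells of the airway, and Cyp1a1 and Cyp1b1 are induced through the aryl hydrocarbon receptor.

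The genes lie on 7 mouse chromosomes in the mm10 build, with positions from GENCODE M21. Fmo1 (chr1:162829561-162866610) and Fmo2 (chr1:162874317-162898726) are neighbours on the same strand, 7706 bases apart. Ephx1 is on the same chromosome (chr1:180976210-181020904). The others are Fmo5 (chr3:97628804-97655282), Cyp4b1 (chr4:115624725-115647723), Por (chr5:135670033-135735326), Cyp2f2 (chr7:27119909-27133660), Cyp1a1 (chr9:57687928-57703824), Cyp1b1 (chr17:79701537-79715061) and Aldh1a1 (chr19:20492715-20643465). Ephx1 overlaps the pseudogene Gm36961 on its own strand, and Cyp2f2, Aldh1a1 and Por overlap transcripts on the opposite strand.

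**Figure D1:**
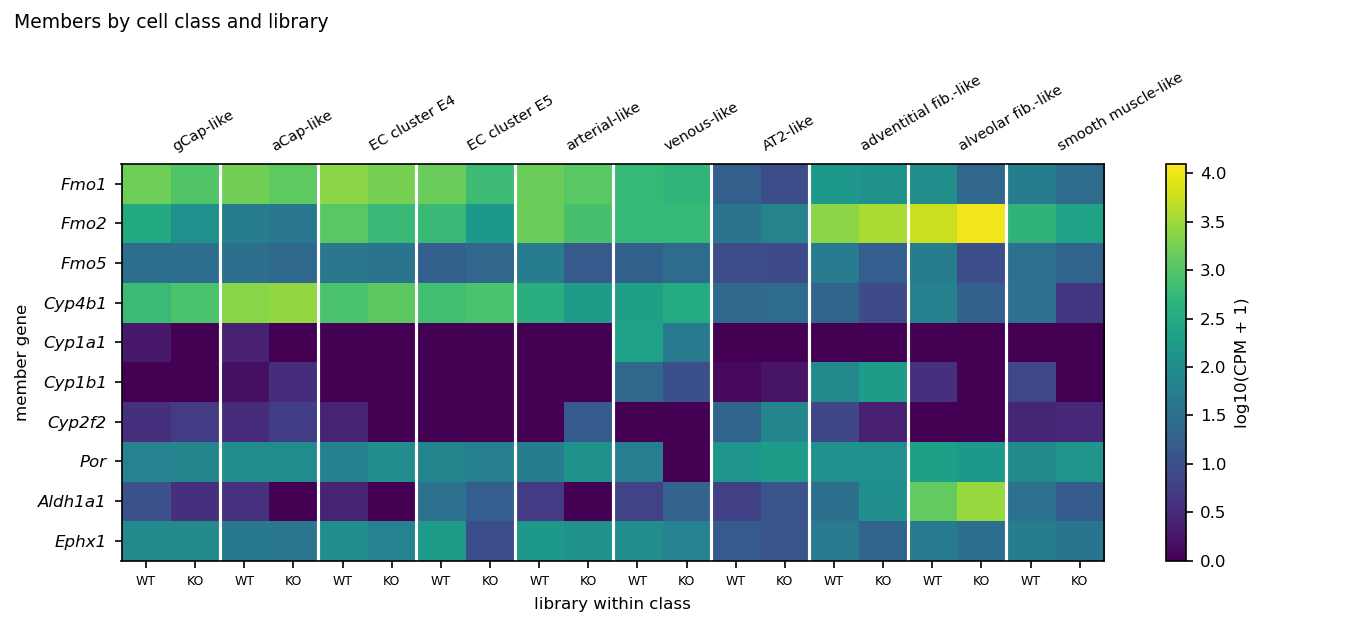
Level of the 10 genes as log10(CPM + 1) (colour) in each of the 10 cell classes, with the WT library in the left column and the KO library in the right column of each class. Fmo1 and Cyp4b1 are bright across the endothelial classes, Fmo2 and Aldh1a1 in the alveolar fibroblast-like cells, and Cyp1a1 in the venous-like cells.

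Fmo1 was an endothelial transcript. In WT its levels were 2436 CPM (2317 to 2559) in cluster E4, 1667 CPM (1613 to 1722) in aCap-like cells and 1568 CPM (1526 to 1612) in gCap-like cells. Arterial-like cells had 1489 CPM and venous-like cells 563 CPM. The intervals of the aCap-like and gCap-like cells touched neither each other nor that of E4, whereas the arterial-like interval (1335 to 1655) overlapped those of both capillary classes. Among the named classes the order was not fixed: the arterial-like level became the highest in WT with stricter cell filters or coarser clusters, and in KO also with looser filters or as a mean over cells. Outside the endothelium WT levels ran from 155 CPM in adventitial fibroblast-like cells down to 16.7 CPM in AT2-like cells. With every cell thinned to 1500 UMIs, 86.7% (84.1 to 89.0) of WT gCap-like cells held a Fmo1 UMI, and 95.4% did without thinning, at a median of 3786 UMIs. The background share, taken from the AT2-like cells at a median of 17636 UMIs, was 2.47% thinned and 21.8% unthinned.

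The summed level of Fmo1 was lower in KO in each of the 10 classes, with overlapping intervals in arterial-like, venous-like, adventitial fibroblast-like and smooth muscle-like cells. Among adventitial fibroblast-like cells with Xist alone the direction turned, to 156 CPM in WT and 180 CPM in KO with overlapping intervals. The endothelial marker Cldn5 had 89.3 CPM in WT and 4.33 in KO alveolar fibroblast-like cells. It had 77.4 and 5.43 CPM in smooth muscle-like and 24.6 and 13.3 CPM in adventitial fibroblast-like cells, beside 2864 and 3849 CPM in gCap-like cells. The part of carried endothelial RNA in the Fmo1 differences outside the endothelium was not tested. KO gCap-like cells had 978 CPM (921 to 1037) against 1568 CPM for WT, a KO over WT ratio of 0.62 (0.58 to 0.67). All 3 gCap-like sub-clusters had this direction: E0 had 1467 CPM in WT against 986 in KO, E2 1891 against 1184, and E3 1326 against 798. The aCap-like ratio, from 1667 CPM in WT and 1202 in KO, was 0.72 (0.66 to 0.79), which is short of the 1.5-fold used to call a difference. Cluster E4 had 2436 and 1825 CPM in the 2 libraries, arterial-like cells 1489 and 1129 CPM, and venous-like cells 563 and 485 CPM. Almost all typed KO gCap-like cells had Y-linked UMIs (133 cells, 1026 CPM), and the 6 with Xist alone were at 674 CPM (348 to 1177).

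Cluster E5, which was 124 KO and 11 WT cells, had 638 CPM (581 to 700) of Fmo1 in KO, below the KO gCap-like cells at a ratio of 0.65 (0.58 to 0.73). This held among the cells with Y-linked UMIs alone (46 and 133 cells), at 704 against 1026 CPM. With Xist alone (59 and 6 cells) the levels were 571 against 674 CPM, a ratio of 0.85 (0.47 to 1.67). Sex marker and cluster are therefore mixed in the values over all KO cells. Over all KO cells Acvrl1 was lower too, at 436 CPM in E5 against 1224 CPM in gCap-like cells. Its ratio was 0.40 (0.33 to 0.48) with Y-linked UMIs alone and 0.73 (0.38 to 1.55) with Xist alone. The cluster was formed from genes of these cells, so its levels describe it and test nothing.

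AT2-like cells had little Fmo1, 16.7 CPM (14.6 to 18.9) for WT against 8.69 CPM (7.03 to 10.6) for KO. The endothelial gene Cldn5 was present there at 0.656% and 0.219% of its gCap-like level. At those ratios, RNA from gCap-like cells would give 10.3 and 2.14 CPM of Fmo1, and the part of carried RNA in the difference was not tested. As a mean over cells in place of summed UMIs, the difference turned to 0.28 on the log2 scale.

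Fmo2, the isoform long known as the main lung form, had its highest levels in fibroblast-like cells. Alveolar fibroblast-like cells had 5849 CPM (5609 to 6097) for WT and 10231 CPM (9822 to 10652) for KO, and every cell of either library held at least 1 UMI. In a 3′ assay a transcript counts once whatever its length, and by UMIs Fmo2 was the transcript of rank 11 in WT and rank 5 in KO in this class. The adventitial fibroblast-like level was 2396 CPM (2291 to 2505) for WT and 3852 CPM (3713 to 3995) for KO. Among WT endothelial cells the order was arterial-like (1493 CPM), E4 (1122), E5 (569), venous-like (557), gCap-like (308) and aCap-like (51.5). E5 and venous-like cells had overlapping intervals, and the other neighbours did not. WT smooth muscle-like cells had 463 CPM and AT2-like cells 36.7 CPM.

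Endothelial Fmo2 was lower in KO in all 6 endothelial classes, though not beyond counting error in each. The gCap-like level was 308 CPM (290 to 328) for WT against 112 CPM (93.2 to 133) for KO, so the ratio was 0.36 (0.30 to 0.44). Sub-cluster E0 had 271 CPM against 102, E2 449 against 204 and E3 195 against 45.6, with intervals apart in all 3. By sex marker, WT cells with Xist alone had 303 CPM (284 to 323) and the 133 KO cells with Y-linked UMIs alone 113 CPM (89.2 to 141). The 6 KO cells with Xist alone had 225 CPM from 4 UMIs (61.2 to 575), which overlapped WT, so a difference within that sex was not detectable at this depth. A Fmo2 UMI was held by 31.6% (28.4 to 35.0) of thinned WT gCap-like cells and 13.3% (9.14 to 18.4) of the KO ones, and unthinned by 51.6% and 28.3%. The aCap-like cells, which had the lowest mean level in the endothelium, held one in 8.03% (WT) and 1.52% (KO) of thinned cells and 21.3% and 18.2% of unthinned cells. Median depths were 3786 and 4993 UMIs for gCap-like and 5539 and 6057 UMIs for aCap-like cells. Sub-cluster E2 was led by the haemoglobin gene Hbb-bs, and Hba-a1, another red cell gene, was at 534 and 26.2 CPM over WT and KO gCap-like cells, whose part in the difference was not tested. E4 had 1122 and 609 CPM and arterial-like cells 1493 and 820 CPM, both with intervals apart. Venous-like cells had 557 and 549 CPM, and aCap-like cells 51.5 and 43.1 CPM, with overlapping intervals in both.

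The fibroblast-like classes and the AT2-like cells went the other way. The KO over WT ratio of Fmo2 was 1.75 (1.65 to 1.85) in alveolar fibroblast-like cells, 1.61 (1.52 to 1.70) in adventitial fibroblast-like cells and 1.86 (1.66 to 2.09) in AT2-like cells, where the levels were 36.7 and 68.4 CPM. Without the Scgb1a1-high cells described with Cyp2f2, the AT2-like ratio was 1.69 (1.51 to 1.90). Adventitial fibroblast-like KO cells with Xist alone (14 cells) had 6409 CPM and those with Y-linked UMIs alone (28 cells) 3061 CPM, beside 2410 CPM in the WT cells with Xist alone. The Y-linked group had a ratio of 1.27 to WT, under 1.5-fold. In alveolar fibroblast-like cells the 2 KO groups were at 9547 and 10664 CPM beside 5757 CPM, and in AT2-like cells at 91.7 and 62.8 CPM beside 34.2 CPM, all higher than WT with intervals apart. Carried alveolar fibroblast RNA, scaled by Mfap4, would give 11.9 and 23.5 CPM in WT and KO AT2-like cells, and its part in the difference was not tested.

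The smooth muscle-like level of Fmo2 was 463 CPM (411 to 520) for WT against 226 CPM (188 to 270) for KO, and the ratio was 0.49 (0.39 to 0.61). The 5 highest cells held 39.0% of the WT and 67.2% of the KO UMIs, so few cells set this level. The 7 fibroblast markers summed to 5039 CPM in WT and 8494 CPM in KO smooth muscle-like cells, and their part in it was not tested. The 11 KO cells with Xist alone had 38.9 CPM and the 33 with Y-linked UMIs alone 325 CPM, beside 444 CPM in WT cells with Xist alone, at ratios of 0.09 (0.03 to 0.19) and 0.73 (0.57 to 0.92), so the latter was short of 1.5-fold with overlapping intervals. With looser cell filters the difference was 0.10 on the log2 scale in place of -1.03.

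**Figure D2:**
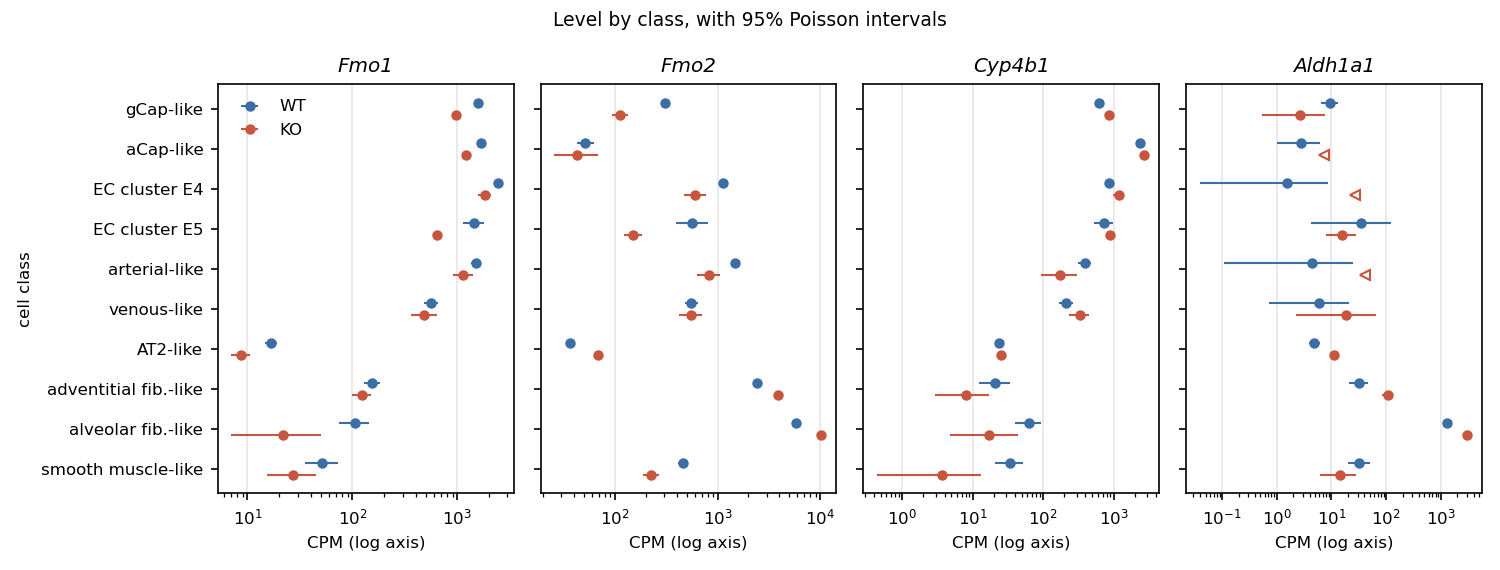
Level in CPM (log axis) of Fmo1, Fmo2, Cyp4b1 and Aldh1a1 in each cell class, with WT in blue and KO in red. Bars are 95% Poisson intervals, and open triangles mark the limit of 3 counts where no UMI was found. KO Fmo2 lies left of WT in gCap-like cells (112 and 308 CPM) and right of it in alveolar fibroblast-like cells (10231 and 5849 CPM).

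Fmo5, an isoform known mainly from liver, was low throughout. WT levels ran from 8.23 CPM in AT2-like cells to 52.5 CPM in alveolar fibroblast-like cells, and gCap-like cells had 29.7 CPM in each library. The highest WT level among the named classes moved to arterial-like cells with looser cell filters, finer clusters or means over cells. Adventitial fibroblast-like cells had 39 UMIs (47.9 CPM) in WT and 12 UMIs (16.0 CPM) in KO, and the ratio was 0.33 (0.16 to 0.65). Thinned to 1500 UMIs per cell this difference changed sign, to 0.49 on the log2 scale, on few UMIs.

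Cyp4b1, a lung P450 known for oxidising fatty acids and activating furan and amine toxins, was found mainly in the endothelial classes. Both libraries had their highest level in aCap-like cells, 2348 CPM (2284 to 2414) for WT and 2709 CPM (2553 to 2871) for KO. WT cells of E4 had 877 CPM, E5 724 CPM, gCap-like 628 CPM, arterial-like 392 CPM and venous-like 214 CPM, and all other classes were at or under 63.0 CPM. E5 overlapped its neighbours on both sides in this order. Thinned, 93.5% (90.6 to 95.8) of WT aCap-like cells held a UMI and 99.0% unthinned, beside background shares of 7.25% and 21.7% in the adventitial fibroblast-like cells. The median depths of those classes were 5539 and 12266 UMIs.

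Capillary Cyp4b1 differed in the other direction from capillary Fmo1, but was not called. The gCap-like level was 628 CPM (601 to 656) for WT against 876 CPM (822 to 932) for KO, and the ratio, 1.39 (1.29 to 1.5), was short of 1.5-fold. Sub-clusters E0 and E2 passed it, at ratios of 1.53 and 1.59, while E3 had 587 and 636 CPM with overlapping intervals. Over all endothelial-like cells together, of which aCap-like cells are a smaller share in KO, the levels were 1173 and 1115 CPM, so the direction turned. It also turned, with overlapping intervals, among gCap-like cells with Xist alone, where WT had 631 CPM and the 6 KO cells 561 CPM (10 UMIs). aCap-like cells had a ratio of 1.15 (1.08 to 1.23) and E4 1.35 (1.10 to 1.63). Arterial-like cells, with 90 and 13 UMIs, had the opposite direction at 392 and 175 CPM. Smooth muscle-like cells had 21 UMIs of Cyp4b1 in WT (33.9 CPM) and 2 in KO (3.62 CPM), a ratio of 0.11 (0.01 to 0.44). Cldn5 stood at 1.44% and 0.0746% of its aCap-like level there, and carried aCap-like RNA at those ratios would give 33.9 and 2.02 CPM of Cyp4b1. The part of carried RNA in this difference was not tested.

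Cyp1a1 and Cyp1b1 are the classical targets of the aryl hydrocarbon receptor, which binds a core of GCGTG. The 250 bases before the start site of each are shown because the pair share this regulator and yet had their highest levels in different cells. The sequences are from RefSeq on GRCm38.p6 (mm10), which matched 9 of the 10 genes. They are Cyp1a1 at chr9:57697363-57697612, plus strand, and Cyp1b1 at chr17:79715062-79715311, minus strand, written 5′ to 3′ with GCGTG, or CACGC where the core is on the other strand, in capitals.
Cyp1a1: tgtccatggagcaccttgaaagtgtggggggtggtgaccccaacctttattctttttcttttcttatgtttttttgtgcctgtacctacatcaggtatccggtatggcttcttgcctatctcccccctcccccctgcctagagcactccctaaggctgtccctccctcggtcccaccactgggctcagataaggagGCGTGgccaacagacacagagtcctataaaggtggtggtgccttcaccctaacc
Cyp1b1: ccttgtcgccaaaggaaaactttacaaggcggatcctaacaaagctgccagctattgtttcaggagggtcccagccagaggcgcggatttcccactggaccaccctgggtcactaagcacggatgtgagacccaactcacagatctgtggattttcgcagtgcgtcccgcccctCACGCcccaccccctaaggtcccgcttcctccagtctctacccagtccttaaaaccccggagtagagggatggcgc
Each window held 1 match. Of 32851 promoter windows of this length, 28.2% held at least 1, so a match here is common.

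Cyp1a1 was a venous transcript. WT venous-like cells had 223 CPM (176 to 279), from 76 UMIs in 18 of 51 cells, and the 5 highest cells held 57.9% of them. KO venous-like cells had 45.8 CPM (14.9 to 107), from 5 UMIs in 2 of 13 cells. After thinning, the share of venous-like cells with a UMI was 14.9% (6.20 to 28.3) for WT and 7.69% (0.195 to 36.0) for KO, with overlapping intervals, and none of 810 WT or 544 KO AT2-like cells used as background did, which by the limit of 3 counts allows up to 0.370% and 0.551%. Unthinned shares were 35.3% and 15.4%. Elsewhere 3 UMIs each were found in WT gCap-like and aCap-like cells and none in the other classes described. Venous-like cells were under 50 in KO, so no call was made.

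Cyp1b1 had its highest level in adventitial fibroblast-like cells, where WT had 83.5 CPM (64.9 to 106) and KO 181 CPM (152 to 214), and the ratio was 2.17 (1.61 to 2.94). KO cells with Xist alone had 341 CPM and those with Y-linked UMIs alone 139 CPM, beside 85.0 CPM in WT, so both were higher. Venous-like cells had 23.4 and 9.15 CPM from 8 and 1 UMIs. Alveolar fibroblast-like cells, the other fibroblast class, had 1 UMI in WT and none in KO. Ahr itself, the receptor, had 456 CPM (433 to 479) in WT gCap-like cells and 293 CPM (263 to 326) in the KO ones. Ahr was at 214 and 91.5 CPM in venous-like cells, and 7 and 9 UMIs were found in adventitial fibroblast-like cells.

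Cyp2f2, which in mouse lung activates naphthalene in club cells, had at most 9 UMIs in either library in any described class but the AT2-like one. There WT had 19.6 CPM (17.4 to 22.1) and KO 75.6 CPM (70.5 to 80.9). A single KO cell held 371 of the 826 KO UMIs, together with 41146 UMIs of the club cell gene Scgb1a1 and 32 of Sftpc. Without the 1 WT and 5 KO cells that had at least as many Scgb1a1 as Sftpc UMIs, the levels were 19.4 CPM (17.2 to 21.9) and 37.1 CPM (33.6 to 41.0), a ratio of 1.91 (1.63 to 2.24). The split by sex marker was made with the Scgb1a1-high cells left in. There, KO AT2-like cells with Xist alone (84 cells, 13.8 CPM, 24 UMIs) were not above WT, and only those with Y-linked UMIs alone were (400 cells, 94.4 CPM). The part of the Scgb1a1-high cells in this split was not tested. Over all AT2-like cells, the Scgb1a1-high ones included, the 6 club markers summed to 382 CPM in WT and 4885 CPM in KO. Of the 51553 KO UMIs of Scgb1a1 in this class, the 5 Scgb1a1-high cells held 41146, 3375, 2327, 534 and 12. The part of club cell RNA in the rest of the Cyp2f2 difference was not tested.

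Por, the electron donor of every microsomal P450, was found in all classes. WT levels lay between 52.2 CPM in arterial-like and 207 CPM in alveolar fibroblast-like cells. The AT2-like level was 144 CPM (138 to 151) for WT against 182 CPM (174 to 190) for KO, at a ratio of 1.26 (1.18 to 1.34), with 194 CPM in KO cells with Xist alone and 182 CPM in those with Y-linked UMIs alone. aCap-like cells had 93.3 and 95.8 CPM. Smooth muscle-like cells had 83.9 and 136 CPM with overlapping intervals. No Por UMI was found in the 13 KO venous-like cells, against 19 UMIs (55.7 CPM) in WT, and at that depth 0 allows up to 27.5 CPM by 3 counts.

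Aldh1a1 oxidises retinaldehyde to retinoic acid and clears lipid aldehydes. A small ciliated-like cluster, given under other observations, had more of it in WT than any class described. Of the 10 classes described, the alveolar fibroblast-like cells had the most, 1282 CPM (1171 to 1401) for WT and 2971 CPM (2753 to 3202) for KO. The ratio was 2.32 (2.06 to 2.61), and both KO sex groups were above the WT cells with Xist alone (3833 and 2739 CPM beside 1252 CPM). Aldh1a1 was among the 10 leading genes of that cluster and was left out of the variable genes used for clustering. After thinning, the share of cells with a UMI was 74.1% (60.3 to 85.0) for WT and 85.2% (66.3 to 95.8) for KO (96.4% and 96.9% unthinned, medians of 7479 and 7239.5 UMIs), beside a background of 0.259% (1.54% unthinned) in WT aCap-like cells.

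The adventitial fibroblast-like level of Aldh1a1 was far smaller, 31.9 CPM (20.9 to 46.8) for WT and 108 CPM (85.5 to 134) for KO, with a ratio of 3.37 (2.14 to 5.47). The KO cells with Xist alone (293 CPM) carried this difference, and those with Y-linked UMIs alone (41.8 CPM) overlapped WT (30.0 CPM). AT2-like cells had 4.89 and 11.3 CPM, and without the Scgb1a1-high cells 4.82 and 3.70 CPM, so the direction turned. Aldh1a7, a near-identical gene whose reads could be split with it, was at 74.1 and 71.7 CPM in AT2-like cells and had 1 UMI in all fibroblast-like WT cells and 1 in KO.

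Among the 10 classes described, Ephx1, the microsomal epoxide hydrolase, had its highest WT levels in endothelial ones. WT levels were 172 CPM (10 UMIs) in E5, 152 CPM in arterial-like, 106 CPM in venous-like, 103 CPM in E4 and 91.8 CPM in gCap-like cells, and the intervals of neighbours in this order overlapped. Smooth muscle-like cells had 51.6 CPM, alveolar fibroblast-like cells 49.9 CPM, adventitial fibroblast-like cells 47.9 CPM, aCap-like cells 44.6 CPM and AT2-like cells 13.8 CPM. When pericyte-like cells, given under other observations, were included, they were the highest named class in KO, and arterial-like cells were in WT. As a mean over cells this order was reversed, and finer clusters also put pericyte-like cells first in WT. In gCap-like cells the KO level was 86.4 CPM, a ratio of 0.94 (0.74 to 1.18). KO cluster E5 stood apart, with 6 UMIs, or 8.53 CPM (3.13 to 18.6) against 86.4 CPM (70.2 to 105) in KO gCap-like cells, and among cells with Y-linked UMIs alone with 15.6 CPM (4 UMIs) against 83.9 CPM. Of the cells with Xist alone, the 59 in E5 held 2 UMIs and the 6 gCap-like ones none, too few to compare. Adventitial fibroblast-like cells had 39 UMIs of Ephx1 in WT (47.9 CPM) and 15 in KO (19.9 CPM), a difference that changed sign when each cell was thinned to 1500 UMIs (1.08 on the log2 scale).

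Over the 5 classes with at least 50 cells in each library, a gene counted as higher or lower in KO when it differed 1.5-fold with intervals apart and averaged 10 CPM or more. The share of all genes called by that rule in the same class is given beside each count, and since the genes were chosen with these contrasts known, nothing is read from it. In gCap-like cells 6 of the 10 had 10 CPM, 0 were higher (1.7% of 8506 genes) and 2 lower, Fmo1 and Fmo2 (2.88%). In aCap-like cells 6 had 10 CPM, with 0 higher (1.81%) and 0 lower (1.95%). In AT2-like cells 6 had 10 CPM, and 2 were higher, Fmo2 and Cyp2f2 (1.9%), and 1 lower, Fmo1 (2.39%). In adventitial fibroblast-like cells 8 had 10 CPM, and 3 were higher, Fmo2, Cyp1b1 and Aldh1a1 (2.72%), and 2 lower, Fmo5 and Ephx1 (3.8%). In smooth muscle-like cells 7 had 10 CPM, with 0 higher (2.01%) and 2 lower, Fmo2 and Cyp4b1 (3.45%).

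**Figure D3:**
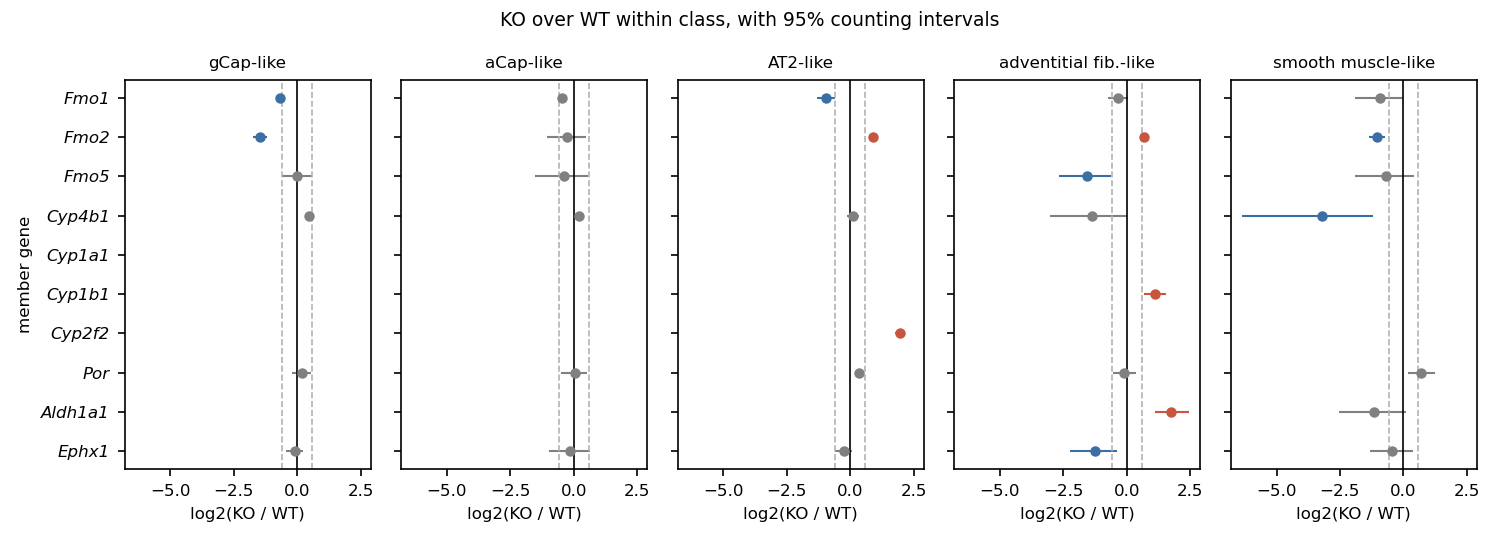
KO over WT as log2 ratio in the 5 classes of at least 50 cells per library, for genes averaging 10 CPM or more. Bars are 95% conditional binomial intervals, dashed lines mark 1.5-fold, red is called higher, blue called lower and grey not called. Fmo2 is blue in gCap-like and smooth muscle-like cells (-1.47 and -1.03, the latter 0.10 with looser cell filters) and red in AT2-like and adventitial fibroblast-like cells (0.90 and 0.68).

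**Figure D4:**
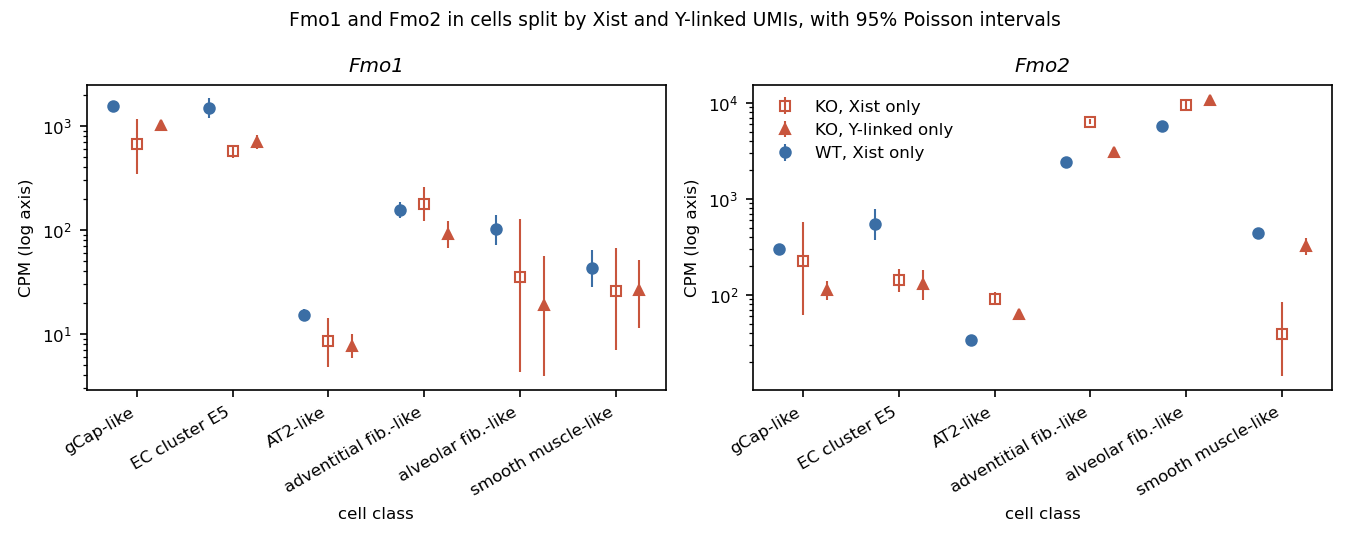
Level of Fmo1 and Fmo2 in CPM (log axis) in WT cells with Xist alone (blue circles), KO cells with Xist alone (open red squares) and KO cells with Y-linked UMIs alone (red triangles), with 95% Poisson intervals. Both KO groups lie above WT for Fmo2 in AT2-like cells (91.7 and 62.8 beside 34.2 CPM), while in smooth muscle-like cells they are far apart (38.9 and 325 beside 444 CPM).

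Patterns over 18 points (9 named classes in 2 libraries, so that points share a library) were compared by Pearson's r of log2(CPM + 10), as a description. The nearest genes to Fmo1 were Ace (r = 0.97) and Ramp2 (0.97), both endothelial membrane proteins, and Fgd5 (0.96). Those to Cyp4b1 were Gm9917 (0.97), Atp13a2 (0.97) and Jup (0.97), and those to Fmo2 were Sned1 (0.90), Dennd4a (0.90) and the matrix gene Mgp (0.89). Cyp1a1 was nearest to Lpcat2 (0.97), Lhx6 (0.96) and the venous marker Slc6a2 (0.95), and Cyp1b1 to Ccl11 (0.94), Ccl8 (0.93) and Vit (0.92). Aldh1a1 was nearest to Adra1b (0.95), B3galnt1 (0.93) and Lpgat1 (0.92). Cyp2f2 was nearest to Smim6 (0.89), Cldn7 (0.87) and Tmem37 (0.86), and Ephx1 to Bcl9l (0.90), Dock6 (0.89) and Taf7 (0.89). For Fmo5 (Brip1os 0.85, Rbm43 0.83, Gstm1 0.80) and Por (Mrpl28 0.82, Cope 0.81, Foxo3 0.79) the values were lower. Among the 10 genes the closest pair was Fmo1 and Cyp4b1 (r = 0.87), whose gCap-like levels differed in opposite directions between the libraries.

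The wider pathway was read from 12 lists of 211 genes, all in the files. Of the list genes with 10 CPM, 0 of 87 were higher and 10 lower in KO gCap-like cells, where 1.7% and 2.88% of all genes were. In aCap-like cells 1 and 4 of 85 were (1.81% and 1.95% of all genes), and in AT2-like cells 3 and 5 of 96 (1.9% and 2.39%). In adventitial fibroblast-like cells 7 and 9 of 111 were (2.72% and 3.8%), and in smooth muscle-like cells 1 and 8 of 97 (2.01% and 3.45%). The median log2 ratio of these genes was -0.12, -0.15, -0.03, -0.19 and -0.39 in that order, beside -0.02, -0.04, -0.00, -0.11 and -0.12 over all genes tested. In smooth muscle-like cells 4 of 11 glutathione transferases were lower, where 3.45% of all genes were, among them Gstt1 (95.2 and 36.2 CPM) and Mgst1 (80.7 and 34.4 CPM). The counts include the 10 genes, which were chosen with these contrasts known. No test of the list was made.

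In gCap-like cells the lower genes came from 8 lists. Beside Fmo1 and Fmo2, which were 2 of the 3 flavin monooxygenases with 10 CPM there, they included Inmt, a methyltransferase of fibroblasts (36.1 and 8.72 CPM), the carbonyl reductase Cbr2 (219 and 114 CPM), xanthine dehydrogenase Xdh (272 and 181 CPM), the electron carrier Cyb5r1 (23.6 and 9.60 CPM), Aldh9a1 (24.5 and 10.5 CPM), Gstt2 (23.3 and 8.72 CPM), the receptor partner Rxra (40.3 and 22.7 CPM) and Ahr. Cbr2, which is strongest in AT2-like cells (2702 and 3130 CPM), is among the genes that AT2 RNA could carry. Sftpc stood at 1.76% and 0.896% of its AT2-like level in WT and KO gCap-like cells. Its part in these values, and that of the red cell RNA noted with Fmo2, was not tested. In aCap-like cells the lower genes were Fdx1, Ces2g (74.3 and 23.9 CPM), Cbr2 and Xdh, and Adh1 was higher from 1 UMI to 13.

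In adventitial fibroblast-like cells the higher list genes included Aldh1a1 and Aldh1a3 (83.5 and 133 CPM), 2 of the 10 retinoic acid genes with 10 CPM, where 2.72% of all genes were higher. The median log2 ratio of those 10 was -0.02. They also included the haem oxygenase Hmox1 (11.1 and 51.9 CPM), Xdh (120 and 241 CPM) and the sulfate donor enzyme Papss2 (27.0 and 59.8 CPM). The lower ones included Adh7 (62 UMIs and 1), Aox3 (52.8 and 21.3 CPM), Pon2 (41.8 and 16.0 CPM), Gstm1 (689 and 419 CPM) and Inmt (1447 and 900 CPM). Hba-a1 had 22.1 CPM in WT but 499 CPM in KO adventitial fibroblast-like cells, and its part in these values was not tested. In AT2-like cells Srxn1 of the NRF2 list was higher (22.2 and 49.9 CPM). Inmt (20.4 and 5.31 CPM), Aldh1l1 (21.6 and 11.5 CPM), Aox3 (136 and 89.7 CPM) and Gstm2 (13.2 and 8.69 CPM) were lower there. The part of carried fibroblast RNA in the AT2-like Inmt values was not tested. In smooth muscle-like cells Cyb5r3 was higher (177 and 273 CPM), and Aldh1a2 (28 and 2 UMIs) and Cbr4 (14 and 1 UMIs) were lower on few UMIs.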

How the data were processed

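The authors deposited unnormalized UMI counts for 2 lung libraries of 3′ chemistry per the labels. The submitters' processing notes list Cell Ranger 3.0.1 and mm10. Barcodes needed 500 genes and no more than 10% of UMIs from mitochondria, and Scrublet (in scanpy 1.11.5) removed 16 WT and 11 KO doublets. Leiden clusters (resolution 1, 30 components, 20 neighbours; endothelial cells reclustered on 20 components) used variable genes without the 10 genes, the pathway genes, or genes that differed between libraries. Names needed 3 markers and more of their own among the top 10 genes than of any other class; this scoring was revised after clusters had been seen. UMIs summed over a class were divided by that class's total, which was 3300302 WT and 1146329 KO UMIs in gCap-like cells and 58007 to 14099037 over the classes. The genes, lists and rules were chosen with earlier results of these data known. Named genes were all 10, the 2 highest of each list, up to 2 called per list, class and direction, and the 3 nearest by r. The calling rule was checked on simulated counts, which hold no replicate error and so do not test a difference between genotypes.

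The 2 highest of each list, over the named classes, were Fmo2, Fmo1, Cyp4b1, Cyp1a1, Cyp26b1, Cyp20a1, Cyb5a, Cyb5r3, Aldh1a1, Aldh2, Ces1d, Esd, Gstm1, Mgst1, Inmt, Sult1a1, Cbr2, Hsd11b1, Ahr, Txn1 and Prdx1; 1 further gene is not reported here. RNA carried from another class was estimated from Sftpc, Dcn, Cldn5 or Mfap4, the last 2 chosen after the data had been seen.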

Additional observations from a re-analysis of the deposited data

Results flagged for a closer look

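Fmo2 was flagged because its difference between libraries had opposite directions in different classes. The log2 KO over WT ratio was -1.47 in gCap-like cells and -1.03 in smooth muscle-like cells, and 0.90 in AT2-like cells and 0.68 in adventitial fibroblast-like cells. With 1 library per group the difference between classes was not tested.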

How the results depend on the processing

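No paired analysis was possible because each group had 1 library, and no library could be left out. Over 5 classes, 5 calls were higher and 7 lower. Thinning each cell to 1500 UMIs left 3 higher and 3 lower, 2-fold left 3 higher, and a mean of 50 CPM left 3 lower. Among cells with Xist alone, in the 3 classes that had enough, 1 was lower, where all cells gave 5. Of the alternatives chosen after seeing the data, gCap-like sub-cluster E0 gave 1 higher and 1 lower and E2 1 higher, where all gCap-like cells gave 0 and 2. Among the called differences, the log2 ratio changed sign for Fmo2 in smooth muscle-like cells (0.10 with 200 genes and 20% mitochondrial UMIs), Fmo1 in AT2-like cells (0.28 as a mean over cells), Fmo5 and Ephx1 in adventitial fibroblast-like cells (0.49 and 1.08, thinned) and Cyp2f2 in AT2-like cells (-0.53, Xist alone); the cause was not tested. Of those not called, Cyp4b1 changed sign in gCap-like (to -0.07 over all endothelial-like cells), aCap-like and AT2-like cells, Fmo1 in adventitial fibroblast-like, Fmo5 in gCap-like, Ephx1 in aCap-like, and Por in gCap-like, aCap-like and adventitial fibroblast-like cells, each under at least 1 alternative. Over the alternatives run in each class, Fmo2 stayed between -2.10 and -1.10 in gCap-like, 0.76 and 1.42 in AT2-like and 0.35 and 1.41 in adventitial fibroblast-like cells, and Fmo1 between -0.94 and -0.57 in gCap-like cells. In adventitial fibroblast-like cells Cyp1b1 ran from 0.36 to 2.00 and Aldh1a1 from 0.39 to 3.29, so the low end of each was under 1.5-fold. The weak end was also under 1.5-fold for Fmo2 in adventitial fibroblast-like cells and for Fmo1 in gCap-like cells. The 6 KO gCap-like cells with Xist alone were too few for that alternative, and their log2 ratio to WT was -0.43 for Fmo2. Resolution 2 gave no gCap-like class. The share of WT gCap-like cells with Fmo1 was 75.5% at 1000 UMIs. Calls of list genes, added over the 5 classes so that a gene can count more than once, were 12 higher and 36 lower. A mean of 50 CPM left 7 and 18, and thinning 7 and 16. Few KO cells limit the venous-like and alveolar fibroblast-like values, and few WT cells those of cluster E5.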

Other observations

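A small ciliated-like cluster of 7 WT cells and 1 KO cell, too few to describe above, had 2057 CPM (1784 to 2359) of Cyp2f2 and 1815 CPM of Aldh1a1 in WT, beside 3751 CPM of the club cell gene Scgb1a1. Pericyte-like cells (24 WT and 21 KO) had 140 and 147 CPM of Ephx1, beside 152 and 121 CPM in arterial-like cells.

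The 2 highest genes of each list showed how unevenly the wider pathway was spread over the classes. Inmt (7951 CPM in WT and 4907 CPM in KO), Hsd11b1, which regenerates active glucocorticoid (2143 and 1992 CPM), and the carboxylesterase Ces1d (1250 and 256 CPM) were highest in alveolar fibroblast-like cells, as were Fmo2 and Aldh1a1. Cbr2 (2702 and 3130 CPM), Txn1 (858 and 1018 CPM) and Prdx1 (667 and 658 CPM) were highest in AT2-like cells. Aldh2, the mitochondrial aldehyde dehydrogenase, was at 1310 and 1505 CPM and the retinoic acid hydroxylase Cyp26b1 at 192 and 228 CPM in arterial-like cells. Gstm1, a glutathione transferase, had 693 CPM in WT and 550 CPM in KO alveolar fibroblast-like cells, and Mgst1, its microsomal relative, 589 and 619 CPM in AT2-like cells. Cyb5a, an electron donor to P450s (529 and 491 CPM), was highest in adventitial fibroblast-like cells, and the esterase Esd (240 and 264 CPM) in smooth muscle-like cells. Pericyte-like cells had the highest levels of Sult1a1, a sulfotransferase (256 and 198 CPM), and Cyp20a1 (82.6 and 119 CPM).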
